A study of Mus musculus with 4 samples.

Results

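Cholesterol synthesis, its sterol control and sterol transport were followed through 29 genes, of 32285 genes counted, in cells of dorsal root ganglia (DRG) and of injured growth plate. The genes were listed by name, with earlier results of these data known, so counts set against all genes are descriptions. They are 17 enzymes of synthesis, 6 genes of sterol control, 2 genes grouped as side branches and 4 genes of sterol transport. All 29 were in all 4 libraries. Of the 2 grouped as side branches, Acat2 makes a substrate of Hmgcs1 and so acts in synthesis itself. It is not counted among the 17.

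Each library is 1 droplet single-cell RNA library of mouse tissue taken 7 days after growth plate injury, and there is 1 library per group. All mice, controls included, carried an allele of a receptor kinase of sensory neurons that makes the kinase sensitive to 1NMPP1, a small-molecule inhibitor. The 1NMPP1 groups (1 DRG, 1 growth plate) were injected with 17 µg per g body weight 48 h and 2 h before surgery and then drank water with 40 µM 1NMPP1. The vehicle groups (1 DRG, 1 growth plate) received vehicle with DMSO. Lumbar ganglia of the injected side, and the distal femur with the injured plate, were digested to single cells. How many animals were pooled in a library, and their ages, the sources used here do not say.

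Cholesterol is built from acetyl-CoA through the mevalonate pathway, and glia that wrap neurons are known to make much of the sterol their membranes need. When sterol in the endoplasmic reticulum is low, Scap carries the SREBP factors, encoded by Srebf1 and Srebf2, to the Golgi, where they are cut, and the freed part enters the nucleus and switches on synthesis genes. When sterol is plentiful, the Insig proteins hold Scap back. Oxysterol receptors drive the exporters Abca1 and Abcg1, while Npc1 and Npc2 release cholesterol from lysosomes.

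Promoters are shown because SREBP factors bind a sterol element and act together with NF-Y, a factor that binds CCAAT. RefSeq sequences of GRCm38.p6 matched 23 of the 29 genes; Fdps, Fdft1, Sqle, Stard4, Abcg1 and Npc1 are the others. The 250 bases before each start were searched on both strands for TCACNCCAC, a form of the sterol element, and for CCAAT. The first motif was in 1 of 14 synthesis promoters, that of Hmgcs1, and in 1.04% of all 27025 promoters. Other forms of the sterol element were not searched, so a promoter without this match may still hold one. CCAAT was in 13 of 14 synthesis promoters, all but Dhcr7, in 4 of 5 control promoters and in 34.5% of all promoters. Within 100 bases of the start, a window chosen after the matches were seen, CCAAT was in 12 of 14 synthesis promoters, in 1 of 5 control promoters and in 20.2% of all. A match is not a measured binding site. Of the 23 promoters only that of Hmgcs1 held both motifs, and they did not overlap in it. Below stand Hmgcs1, at chr13:119690101-119690350 on the plus strand, and the next 3 synthesis genes by UMI number among those matched. These are Msmo1, at chr8:64733579-64733828 on the minus strand, Idi1, at chr13:8885356-8885605 on the plus strand, and Cyp51, at chr5:4104698-4104947 on the minus strand. Each is written 5′ to 3′ on the gene's strand; capitals mark the motifs, and ATTGG is CCAAT on the other strand.
Hmgcs1: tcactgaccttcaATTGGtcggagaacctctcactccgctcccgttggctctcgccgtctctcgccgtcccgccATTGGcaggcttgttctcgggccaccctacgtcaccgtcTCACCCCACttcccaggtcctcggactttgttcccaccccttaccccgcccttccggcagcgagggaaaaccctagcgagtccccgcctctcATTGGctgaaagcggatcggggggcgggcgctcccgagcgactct
Msmo1: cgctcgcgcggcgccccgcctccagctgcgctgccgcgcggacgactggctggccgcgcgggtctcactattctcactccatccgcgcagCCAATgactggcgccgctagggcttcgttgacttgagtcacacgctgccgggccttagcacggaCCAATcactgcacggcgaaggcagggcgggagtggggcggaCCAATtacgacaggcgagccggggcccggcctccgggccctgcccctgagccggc
Idi1: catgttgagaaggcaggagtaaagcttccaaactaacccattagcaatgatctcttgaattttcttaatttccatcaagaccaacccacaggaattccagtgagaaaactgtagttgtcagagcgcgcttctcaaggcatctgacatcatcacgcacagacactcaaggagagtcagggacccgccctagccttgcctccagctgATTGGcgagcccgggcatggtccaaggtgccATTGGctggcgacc
Cyp51: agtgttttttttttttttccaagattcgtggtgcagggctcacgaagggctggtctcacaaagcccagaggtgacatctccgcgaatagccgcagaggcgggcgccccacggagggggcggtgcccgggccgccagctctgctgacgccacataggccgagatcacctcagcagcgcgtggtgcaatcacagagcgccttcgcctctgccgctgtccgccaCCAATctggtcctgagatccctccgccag
In Hmgcs1 the sterol element ends 128 bases before the start and the nearest CCAAT 40 bases before it. The nearest CCAAT ends 50 bases before the start in Msmo1, 9 in Idi1 and 24 in Cyp51, so all 4 have one close to the start.

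The libraries kept 2841 (vehicle) and 2153 (1NMPP1) DRG cells and 8665 and 10541 growth plate cells, with median depths of 6504 to 10462 unique molecules (UMIs) per cell. Cells were grouped without use of the 29 genes and named from marker genes, which were all detected in the 3 neural classes described below; between 2.51% and 9.54% of cells per library stayed unnamed. Levels are in CPM, the UMIs of a gene per 1000000 UMIs of a class in a library, given as vehicle and then 1NMPP1, and log2 ratios are 1NMPP1 over vehicle. Intervals are 95% intervals of counting error only, since 1 library per group allows no test of the treatment, and each ratio compares 2 libraries. Cells with Y-linked UMIs and none of Xist were 45.5% of the vehicle and 17.4% of the 1NMPP1 cells in DRG, and 49.8% and 24.9% in growth plate, so values are also given within cells called male or female. The libraries shared 84 barcodes in all.

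Satellite glia-like cells, which wrap the bodies of sensory neurons, carried the highest level of synthesis transcripts among the 22 classes with at least 30 cells in both libraries. The 17 synthesis genes summed to 4325 and 4853 CPM (579 and 178 cells). Myelinating Schwann-like cells, which form the myelin of peripheral axons, came next at 2558 and 2853 CPM (290 and 255 cells). Sensory neuron-like cells followed at 2030.5 and 1879.7 CPM (116 and 66 cells). Each of these classes stood above the next in both libraries. Cells of at least 1000 UMIs were also thinned to 1000 UMIs. As the mean over all random draws the order was kept, with vehicle Schwann-like cells at 2456 and neurons at 2304 CPM. In 1 separate draw vehicle neurons stood above Schwann-like cells, at 2.52 against 2.45 UMIs per cell. Of the 16 processing settings compared, only female-called cells lost the order, with vehicle neurons above Schwann-like cells.

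The first classes below were dendritic cells of the growth plate. Plasmacytoid dendritic-like cells held 758 and 627 CPM and conventional dendritic-like cells 827 and 526 CPM, and their order was not the same in both libraries. From there on most neighbours overlapped. DRG monocyte-like cells had 549 and 337 CPM, DRG fibroblast-like cells 389 and 400.4 CPM and growth plate monocyte-like cells 450.3 and 324 CPM. Endothelial-like and macrophage-like cells of the ganglion were low, at 182 and 219 CPM and at 221 and 152 CPM. DRG erythroid-like cells, which are filled with hemoglobin transcripts, were lowest at 151 and 94.0 CPM; satellite glia markers read 107 and 90.4 CPM in them, and what free RNA adds to such low levels was not tested.

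**Figure D1:**
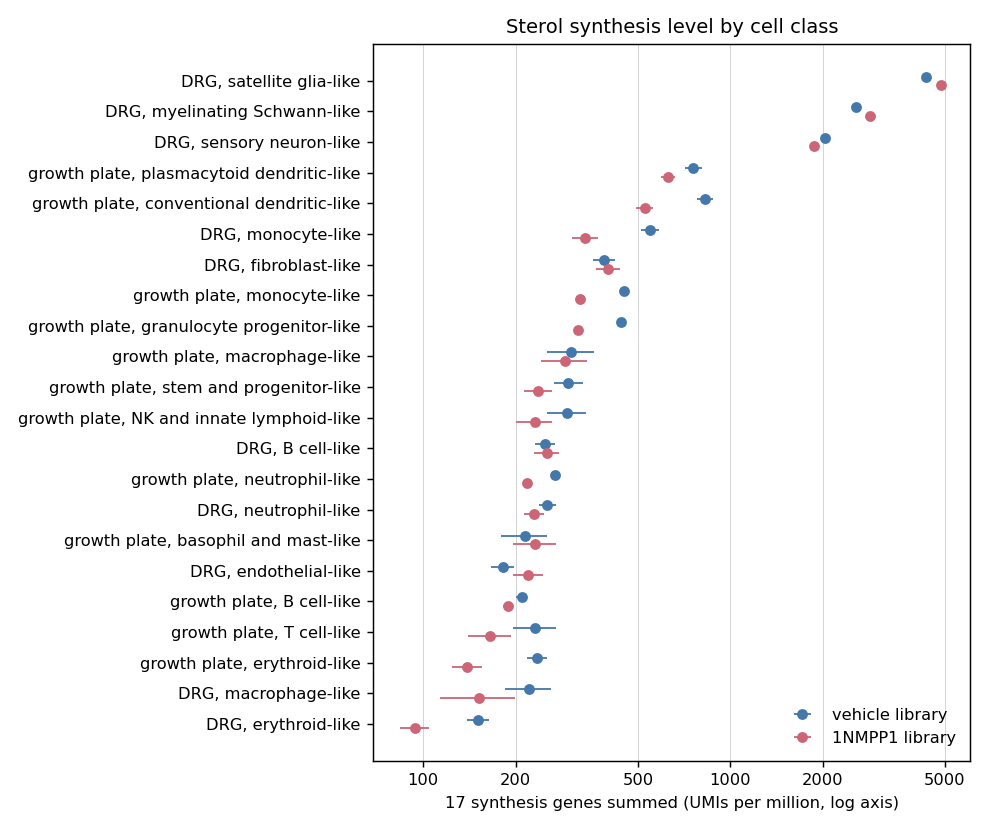
Summed level of the 17 synthesis genes (CPM, log axis) in 22 cell classes; blue points are vehicle and red points 1NMPP1 libraries, and bars are 95% counting intervals. Satellite glia-like cells lie at 4325 and 4853, above every other class shown.

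The high level of satellite glia-like cells ran through most of the pathway. At least 2-fold above all other DRG cells in both libraries were 13 of 17 synthesis genes, 3 of 6 control genes and 2 of 4 transport genes, 18 of 29 in all, against 10.3% of 16604 genes. None of the 29 was at least 2-fold lower in both libraries, against 31.5% of genes. Cyp51, which removes a methyl group from lanosterol, stood 3.06 (vehicle) and 3.02 (1NMPP1) above the other cells on the log2 scale. Lss, which closes squalene epoxide to lanosterol, stood 2.92 and 3.67 above, and Msmo1, the next methyl oxidase, 2.72 and 2.65. These enzymes make lanosterol and work on its first products, and no other member stood at least as far above in both libraries.

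The synthesis genes outside that count were Mvk, Pmvk, Mvd and Ebp. The first of them, mevalonate kinase, stood 0.46 and 1.28 above the other cells, and Ebp, the sterol isomerase, 0.089 and 0.34. Of the control genes Insig1 (2.40 and 2.85), Srebf1 and Stard4 were in the count, while Insig2 was lower than in the other cells, at -0.92 and -0.17. In myelinating Schwann-like cells 5 of 29 members were at least 2-fold above the rest, against 8.67% of genes, and in sensory neuron-like cells 2 of 29, against 20.2%. The first share was above its background and the second below.

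Along the pathway, 15 of the 17 synthesis genes had their highest DRG level in satellite glia-like cells, by the mean of both libraries. For 11 of them both libraries lay above both libraries of the next class. Hmgcs1, which makes the HMG-CoA that enters the pathway, was not among these 11: it had 901 and 1317 CPM in satellite glia-like, 819 and 928 CPM in Schwann-like and 336 and 415 CPM in neuron-like cells. For Mvk (36.3 and 57.3 CPM against 45.5 and 41.0 CPM in neurons), Mvd and Dhcr7 the libraries overlapped as well. For these 4 genes satellite glia-like cells were therefore not apart from the next class.

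From isopentenyl pyrophosphate to squalene, the class next to satellite glia-like cells differed by gene. Idi1, the isomerase, had 426 and 399.7 CPM in satellite glia-like, 329.7 and 311 CPM in Schwann-like and 172 and 131 CPM in neuron-like cells. Fdps, which makes farnesyl pyrophosphate, had 532 and 590.1 CPM in satellite glia-like cells and 430.3 and 272 CPM in neuron-like cells, with 229.7 and 271 CPM in Schwann-like cells. In the vehicle library neurons thus stood above Schwann-like cells for Fdps, and in the 1NMPP1 library beside them. Fdft1, squalene synthase, had 198 and 264 CPM against 168 and 164 CPM in neurons, and Sqle, which oxidises squalene, 284 and 274 CPM against 145 and 139.8 CPM.

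Of the enzymes that close and trim the sterol ring, Cyp51 had 499 and 403 CPM in satellite glia-like, 288 and 229.5 CPM in Schwann-like and 72.1 and 77.2 CPM in neuron-like cells. Msmo1 had 656 and 544 CPM, 326 and 354 CPM and 143 and 137 CPM in the same order of classes. Lss had 36.8 and 87.9 CPM, 12.5 and 29 CPM and 5.79 and 12.4 CPM. For each of the 3, all satellite glia-like libraries stood above all others of the ganglion. Nsdhl, a demethylation enzyme, had 110.1 and 132 CPM in satellite glia-like and 53.4 and 56.0 CPM in neuron-like cells, which came next. Its partner Hsd17b7 had 87.0 and 95.0 CPM against 38.9 and 67.7 CPM in Schwann-like cells. Sc5d, a late desaturase, had 209 and 216 CPM against 93.2 and 117 CPM in Schwann-like cells, and Tm7sf2, a sterol reductase, 48.0 and 80.8 CPM against 29.5 and 28.0 CPM in neurons. The exceptions were Pmvk, with 189 and 161 CPM in neuron-like and 171 and 163 CPM in satellite glia-like cells, and Ebp, with 80.8 and 59.9 CPM in DRG monocyte-like, 69.2 and 41.0 CPM in neuron-like and 51.3 and 41.9 CPM in satellite glia-like cells.

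Control genes fell into those that followed synthesis and those that did not. Insig1, itself a target of SREBP factors, was highest in satellite glia-like cells, at 201 and 301 CPM against 80.7 and 185 CPM in Schwann-like cells. Stard4, a carrier that moves sterol between membranes, was highest there too, at 86.2 and 99.2 CPM against 34.1 and 49.4 CPM in neuron-like cells. For both, the satellite glia-like libraries stood above those of the next class. Srebf2 had 173 and 241 CPM in satellite glia-like and 152 and 261 CPM in Schwann-like cells, which overlapped. Srebf1 had 59.1 and 124 CPM in satellite glia-like and 41.4 and 64.0 CPM in DRG fibroblast-like cells, which overlapped as well. Insig2, which is less dependent on SREBP factors than Insig1, was highest in fibroblast-like cells, at 44.1 and 38.4 CPM, and read 15.5 and 19.7 CPM in satellite glia-like cells. Scap was highest in growth plate B cell-like cells, at 104 and 98.4 CPM, and within the ganglion in Schwann-like cells, at 42.8 and 64.4 CPM.

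Transport and side-branch genes peaked elsewhere. Abca1, which hands cholesterol to lipid-poor apolipoprotein, had 938 and 608 CPM in growth plate macrophage-like and 442 and 755 CPM in DRG macrophage-like cells, and satellite glia-like cells came next in the ganglion at 229.7 and 218 CPM. Npc2, a soluble lysosomal sterol binder, had 799.8 and 1050.3 CPM in growth plate macrophage-like and 709.9 and 919 CPM in DRG monocyte-like cells. Abcg1, an exporter to lipoprotein particles, had 198 and 151 CPM in growth plate macrophage-like cells and 69.7 and 70.1 CPM in Schwann-like cells. Growth plate macrophage-like cells thus had the highest mean level for 3 of the 4 transport genes. Npc1, the membrane partner of Npc2, was highest in growth plate plasmacytoid dendritic-like cells, at 162 and 166 CPM, and within the ganglion in Schwann-like cells, at 99.5 and 119 CPM. Acat2, an acetoacetyl-CoA thiolase, had 70.9 and 68.8 CPM in neuron-like cells. Ggps1, which makes geranylgeranyl pyrophosphate, had 66.7 and 60.7 CPM in growth plate B cell-like and 65.2 and 59.3 CPM in DRG endothelial-like cells.

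**Figure D2:**
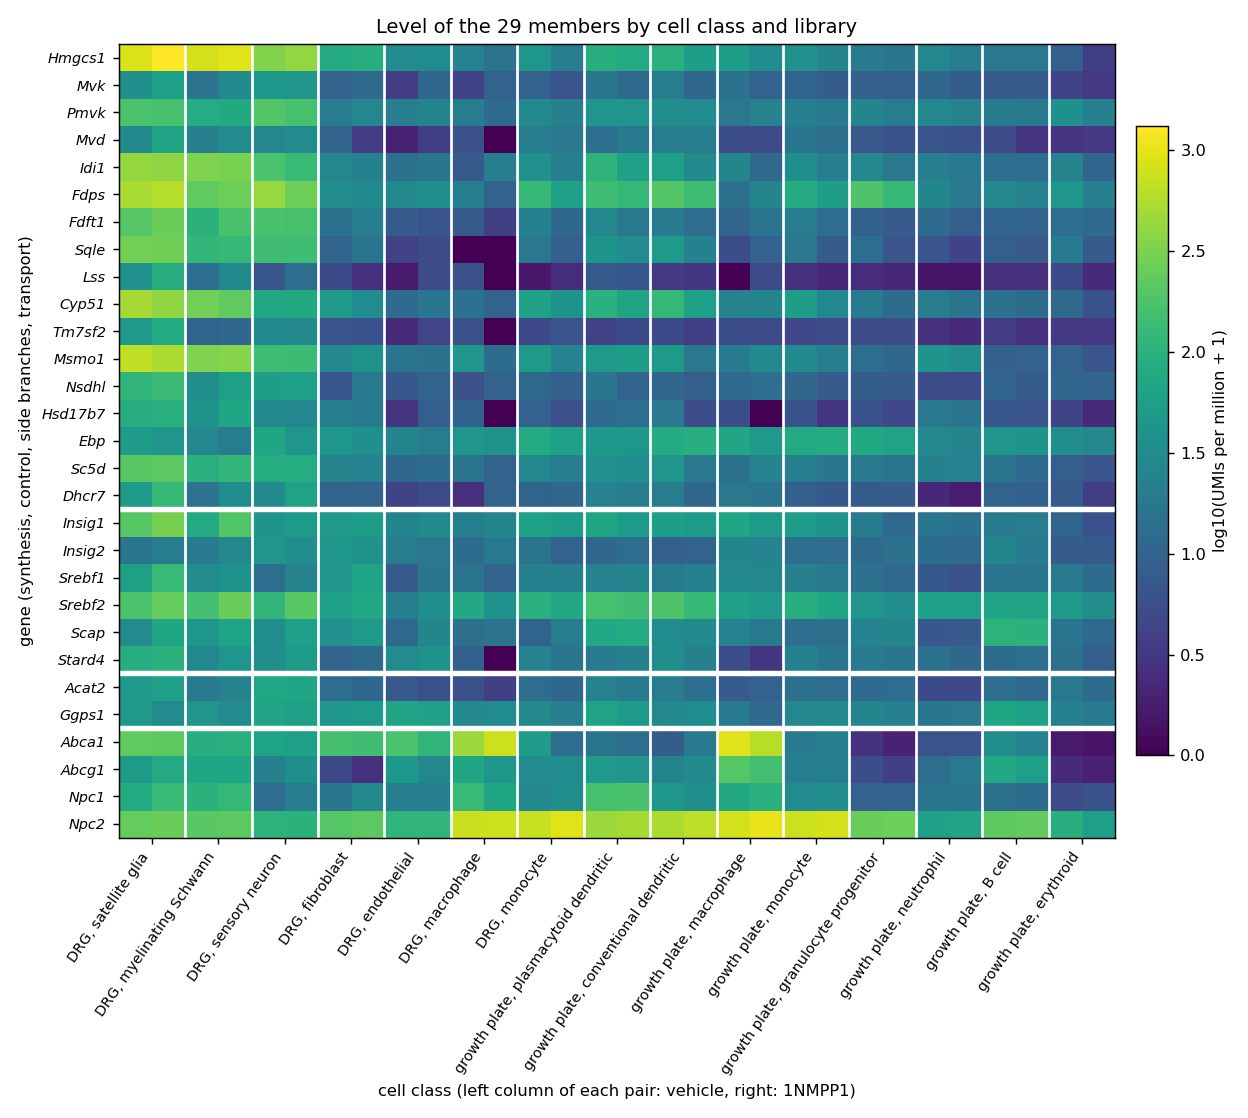
Level of each of the 29 members (colour, log10 of CPM plus 1) in 15 cell classes, with the vehicle library left and the 1NMPP1 library right in each pair; rows are grouped as synthesis, control, side branches and transport. Apart from Ebp, each synthesis row has its highest mean in one of the 3 neural classes at left, and Abca1 and Npc2 are brightest in macrophage-like and monocyte-like cells.

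Across the 44 class-and-library pairs most synthesis genes varied together; this is a description, since pairs share libraries and depth. Pearson's r of a gene with the sum of the other synthesis genes was 0.94 for Idi1, 0.92 for Hmgcs1 and 0.91 for Msmo1, and at least 0.77, for Dhcr7, in all but Ebp, which had 0.20. Among control genes it was 0.84 for Srebf2, 0.80 for Insig1, 0.67 for Stard4 and 0.64 for Srebf1, but 0.47 for Scap and 0.36 for Insig2. The exporters Abca1, at 0.32, and Abcg1, at 0.29, were far from the synthesis pattern. Outside the 29 genes, those ranking high in likeness to the synthesis sum included Prima1 (0.88), Dpysl4 (0.86), Tmem229a (0.86), Adgrl3 (0.85), Scd2 (0.85), Mfap3l (0.85), Chadl (0.84) and Lgi1 (0.84). Scd2, a fatty acid desaturase, is a known target of SREBP factors.

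Satellite glia-like cells were uneven among themselves. Their largest cluster (323 vehicle and 128 1NMPP1 cells) held 5009 and 5415 CPM of synthesis transcripts, and a cluster of 58 and 40 cells held 2504 and 2398 CPM. The other 2 clusters held 121 and 77 vehicle cells but 5 1NMPP1 cells each, at 3087 and 1999 CPM and at 1153 and 672 CPM. The make-up of the class thus differed between libraries. Over single cells the median was 3530.1 CPM in the vehicle and 4214 CPM in the 1NMPP1 library, with quartiles of 1611 and 5391 CPM and of 2160.0 and 6343 CPM.

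The comparison of 1NMPP1 with vehicle asks whether the inhibitor, given from before the injury, went with other sterol gene levels a week later. In satellite glia-like cells the synthesis sum differed little: the log2 ratio was 0.17 (0.14 to 0.20), beside a median of 0.14 over all genes. It was -0.0090 in female-called and 0.42 in male-called cells. Male-called cells were 56.8% of the class in the vehicle and 25.8% in the 1NMPP1 library, and female-called cells 29% and 64.6%. It was 0.11 in the largest cluster and 0.047 without Hmgcs1. Hmgcs1 itself differed by 0.55 (0.49 to 0.61). In all DRG cells pooled the sum was instead lower, at 1776 and 1377 CPM, where satellite glia-like cells were 579 of 2841 vehicle and 178 of 2153 1NMPP1 cells.

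Single enzymes of satellite glia-like cells went different ways. At least 1.5-fold higher in the 1NMPP1 library were 5 of 17 synthesis genes, against 21.6% of 12569 genes, a share near the background. Dhcr7, which reduces the last double bond on the way to cholesterol, had 50.1 and 121 CPM, a log2 ratio of 1.27 (1.05 to 1.48). Lss had 36.8 and 87.9 CPM, a ratio of 1.26 (1.00 to 1.51), and Mvd, which makes isopentenyl pyrophosphate, 29.9 and 65.3 CPM, a ratio of 1.13 (0.84 to 1.41). Tm7sf2 (0.75) and Mvk (0.66) were the others. Cyp51 and Msmo1 differed in the opposite direction, by -0.31 (-0.41 to -0.21) and -0.27 (-0.36 to -0.18), short of 1.5-fold. None of the 17 was 1.5-fold lower, against 11.2% of genes, and of the other members Ggps1 was, with 48.2 and 31.0 CPM, a ratio of -0.63. So Lss, the ring-closing step, and Cyp51, the step after it, stood on opposite sides of 0 in the same cells.

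Control genes of satellite glia-like cells were higher in the 1NMPP1 library in 6 of 6 cases, against 60.7% of all genes, and 2 of 6 passed 1.5-fold, against 21.6%. Their sum had 566 and 852 CPM, a log2 ratio of 0.59 (0.52 to 0.66). Scap had 30.7 and 67.0 CPM, a ratio of 1.13 (0.84 to 1.41), and Srebf1 59.1 and 124 CPM, a ratio of 1.07 (0.86 to 1.28). Insig1, at 0.58, lay just short of 1.5-fold, and Srebf2 was at 0.48. The ratio of the sum was 0.57 in female-called cells, 0.66 in male-called cells and 0.53 in the largest cluster, so it was about as large within each sex and within 1 cluster. Of the transport genes Abcg1 (48.5 and 80.4 CPM, 0.73) and Npc1 (82.4 and 127 CPM, 0.63) passed 1.5-fold. Abca1 and Npc2 were close to 0, at -0.074 and 0.11. Schwann markers read 1535 and 2112 CPM in the class and neuron markers 184 and 93.3 CPM, and their part in these ratios was not tested.

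Myelinating Schwann-like cells of the same libraries had a synthesis sum that differed by 0.16 (0.10 to 0.22), beside 0.10 for the median gene. At least 1.5-fold higher in the 1NMPP1 library were 6 of 17 synthesis genes, against 17.5% of 9775 genes, and none was 1.5-fold lower, against 7.62%. Lss had 12.5 and 29 CPM, Dhcr7 14.4 and 32.2 CPM and Mvk 14.4 and 29 CPM, with ratios of 1.21, 1.15 and 1.00 that rest on 26 to 40 UMIs per library. Nsdhl, Hsd17b7 and Fdft1 were the others, at 0.81, 0.80 and 0.73. Cyp51 was lower, as in satellite glia-like cells, by -0.33 (-0.54 to -0.12). The sum differed by 0.41 in male-called and 0.13 in female-called cells.

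Schwann-like cells had the largest difference in control genes among the 3 neural classes. All 6 were higher in the 1NMPP1 library, against 58.5% of genes, and 4 of 6 passed 1.5-fold, against 17.5%. The sum had 354 and 619 CPM, a log2 ratio of 0.81 (0.66 to 0.96), with 0.74 in female-called and 0.87 in male-called cells. Insig1 had 80.7 and 185 CPM, a ratio of 1.20 (0.90 to 1.49), and Srebf2 152 and 261 CPM, a ratio of 0.78 (0.55 to 1.00). Stard4 (0.62) and Scap (0.59) were at the limit of 1.5-fold. Srebf1 was at 0.31 (-0.26 to 0.87), an interval that holds 0. Transport genes were near level, and Abcg1 had 69.7 and 70.1 CPM.

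Sensory neuron-like cells had a synthesis sum slightly lower in the 1NMPP1 library, by -0.11 (-0.14 to -0.082), beside 0.061 for the median gene. At least 1.5-fold lower were 2 of 17 synthesis genes, against 11.2% of 14288 genes, a share near the background. Fdps had 430.3 and 272 CPM, a log2 ratio of -0.66 (-0.74 to -0.59), and Ebp 69.2 and 41.0 CPM, a ratio of -0.75 (-0.94 to -0.57). At least 1.5-fold higher were 2 of 17, against 13.7%, also near the background. These were Lss, with 5.79 and 12.4 CPM and a ratio of 1.10, and Dhcr7, with 29 and 60.9 CPM and a ratio of 1.07. With each cell weighing alike, Lss was reversed. The direction of the sum was not stable: it was 0.0071 without Fdps, 0.0085 with each library clustered on its own, and 0.46 in the largest cluster, whose cells had a median of 1134 UMIs. Fdps in that cluster read 0.35. The class was made up differently in the libraries: a cluster of 14 and 17 cells gave 3732391 and 3221671 of its 13462750 and 7736859 UMIs, and a cluster of 29 and 9 cells 3344819 and 1590405. With cells of at least 1000 UMIs thinned to 1000 UMIs, as the mean over all random draws, Dhcr7 read -0.35.

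Control genes of neurons were higher in the 1NMPP1 library in 5 of 6 cases, against 55.6% of genes, and 3 of 6 passed 1.5-fold, against 13.7%. The sum had 272 and 418 CPM, a log2 ratio of 0.62 (0.55 to 0.69). Srebf2 had 111 and 206 CPM, a ratio of 0.89 (0.79 to 0.99), Srebf1 was at 0.90 and Scap at 0.80, while Insig2 was at -0.31. The 4 neuron-like clusters each had the control sum higher in the 1NMPP1 library. Deep cells weighed most: with each cell weighing alike the ratio was 0.20, and thinned to 1000 UMIs, as the mean over all draws, 0.25. Of transport genes Npc1 had 12.4 and 20.3 CPM and Abcg1 21.9 and 34.6 CPM, ratios of 0.71 and 0.66, and thinned in this way Npc1 read -0.69. Neuron markers read 17873 and 14834 CPM in the class.

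**Figure D3:**
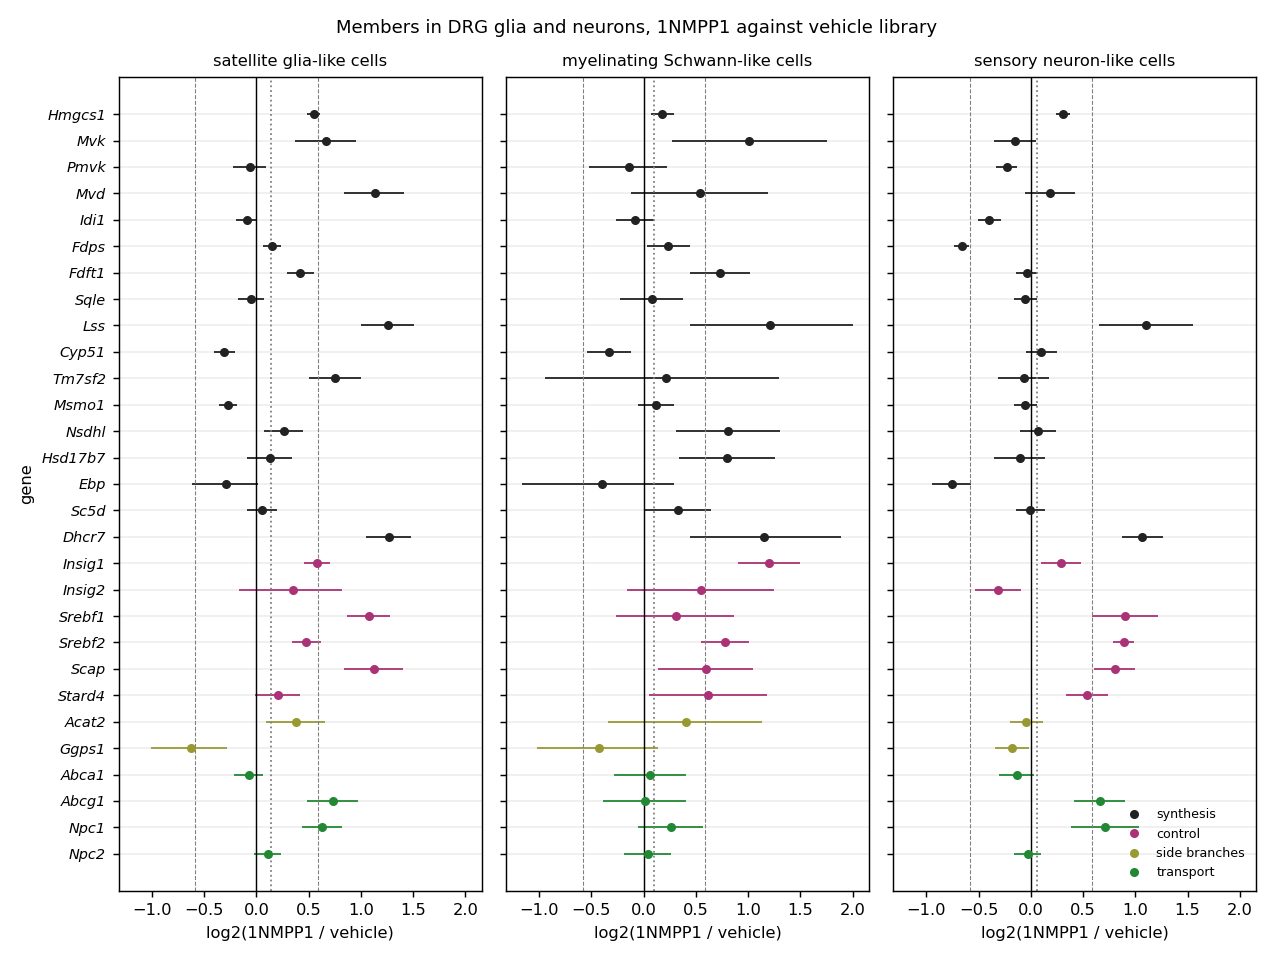
Log2 ratio of the 1NMPP1 to the vehicle library for the 29 members in 3 DRG classes; bars are 95% counting intervals, the solid line is 0, dashed lines mark 1.5-fold and the dotted line is the median of all genes. Lss and Dhcr7 lie above the upper 1.5-fold line in all 3 classes, and Cyp51 lies below 0 in both glial classes.

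A wider list of 31 genes of lipid supply was counted beside the members. Its 10 fatty acid genes, which SREBP-1 is known to drive, were higher in the 1NMPP1 library in 9 of 10 cases in satellite glia-like, 9 of 10 in Schwann-like and 9 of 10 in neuron-like cells, against the same 60.7%, 58.5% and 55.6% of genes. At least 1.5-fold higher were 7 of 10, 5 of 10 and 5 of 10, against 21.6%, 17.5% and 13.7%. Their sum had 3235 and 6112 CPM in satellite glia-like cells, a log2 ratio of 0.92 (0.89 to 0.95), with 0.91 in female-called and 0.96 in male-called cells. Fasn, the fatty acid synthase, had 80.4 and 231 CPM there, Scd2 1290.5 and 2772 CPM and Scd1, its fellow desaturase, 468 and 1084 CPM. In Schwann-like cells the sum had 2123 and 3391 CPM and in neuron-like cells 1084 and 1703 CPM. Me1, the malic enzyme, was the exception in each class, with 517 and 468 CPM in satellite glia-like cells.

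The other lists were mixed. All 7 uptake and movement genes were higher in the 1NMPP1 library in satellite glia-like cells, against 60.7% of genes, and Vldlr, a lipoprotein receptor, had 83.2 and 182 CPM. Scarb1, the receptor for high-density lipoprotein, had 65.0 and 102 CPM there and 29.3 and 90.2 CPM in Schwann-like cells. Mbtps1, the first protease that cuts SREBP factors, had 22.9 and 48.5 CPM in satellite glia-like cells, while Mylip, which marks lipoprotein receptors for breakdown, had 90.4 and 49.4 CPM. The sterol storage list differed by -0.18 in satellite glia-like, 0.25 in Schwann-like and 0.13 in neuron-like cells.

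Among the remaining DRG classes, endothelial-like cells (131 and 122 cells) had 8 of 11 synthesis and 5 of 6 control genes with at least 20 UMIs higher in the 1NMPP1 library, against 66.2% of genes, with Scap at 10.8 and 26.2 CPM. Their exporters were lower, Abca1 at 172 and 109 CPM and Abcg1 at 44.9 and 27.6 CPM. They were the 2 of 23 members at least 1.5-fold lower, a share near the 9.26% of all genes. At least 1.5-fold higher were 4 of 23 members, against 25.9%. The 3 largest endothelial-like clusters held 84 and 32, 22 and 40 and 13 and 43 cells of the libraries, so different clusters made up most of the class in each. Fibroblast-like cells (117 and 112 cells) had 8 of 14 synthesis and 5 of 6 control genes higher, against 59.3%, close to the background for synthesis. In macrophage-like cells (65 and 58 cells) most members had too few UMIs. Abca1 was higher there, by 0.77 (0.52 to 1.03), and Npc1 had 129 and 67.1 CPM, which was 0.51 in male-called cells on 28 and 6 UMIs.

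DRG monocyte-like cells (74 and 103 cells) had lower synthesis levels in the 1NMPP1 library, unlike both glial classes. Of the synthesis genes with at least 20 UMIs 13 of 14 were lower in the 1NMPP1 library, against 44.5% of 8918 genes, and 7 of 14 at least 1.5-fold lower, against 8.76%. Fdps had 122 and 60.7 CPM, Msmo1 48.8 and 23.1 CPM and Hmgcs1 42.3 and 20.0 CPM. The sum differed by -0.70 (-0.88 to -0.53), but by -0.12 when no cells were removed as doublets. The class was made up differently in the libraries: its largest cluster held 26 and 57 cells. Median depth per cell was 16805.5 UMIs in the vehicle and 9771 in the 1NMPP1 library. Neither the part of these in the ratio nor the difference from the glia was tested. DRG neutrophil-like cells had 12 of 14 lower, against 39.2%, but 1 of 14 at least 1.5-fold lower, against 6.12%. Their sum had 254 and 229.7 CPM, a log2 ratio of -0.14 (-0.29 to 0.00088), an interval that holds 0.

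In growth plate, synthesis genes were lower in the 1NMPP1 library in most blood classes. In monocyte-like cells (862 and 1103 cells) 15 of 17 were lower, against 54.4% of 12957 genes, and 6 of 17 at least 1.5-fold lower, against 5.16%. The sum had 450.3 and 324 CPM, a log2 ratio of -0.47 (-0.52 to -0.42), beside -0.020 for the median gene. Sqle had 16.9 and 7.18 CPM, a ratio of -1.23 (-1.55 to -0.92), and Cyp51 53.3 and 28.0 CPM, a ratio of -0.93 (-1.09 to -0.77). Hsd17b7 (-1.32), Idi1 (-0.74), Fdft1 (-0.69) and Fdps (-0.61) were the others. Ebp, at 79.9 and 81.5 CPM, and Tm7sf2 did not share the direction. The sum differed by -0.50 in female-called and -0.52 in male-called cells, so it was as large within each sex.

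The neutrophil lineage had the same direction. In granulocyte progenitor-like cells (533 and 489 cells) 16 of 17 synthesis genes were lower, against 50.7% of genes, and 4 of 17 at least 1.5-fold lower, against 4.14%. The sum differed by -0.47 (-0.52 to -0.41), and Fdps had 182 and 117 CPM and Sqle 12.3 and 5.59 CPM. In neutrophil-like cells (4415 and 5681 cells) 16 of 17 were lower, against 38.5%, and 3 of 17 at least 1.5-fold lower, against 3.16%. Their sum had 268 and 218 CPM, a log2 ratio of -0.30 (-0.34 to -0.26), beside 0.051 for the median gene. Fdps had 26.3 and 16.8 CPM, Sqle 5.61 and 3.22 CPM and Dhcr7 1.31 and 0.771 CPM, the last on 43 and 34 UMIs, and Dhcr7 read 0.015 in the largest cluster, on 5 and 7 UMIs. The sums differed by -0.45 and -0.43 in female-called and by -0.55 and -0.27 in male-called progenitors and neutrophils.

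Conventional dendritic-like cells (79 and 100 cells) had 14 of 15 synthesis genes lower, against 55.6% of genes, and 10 of 15 at least 1.5-fold lower, against 9.32%. Msmo1 had 49.2 and 16.1 CPM, a log2 ratio of -1.60, and Cyp51 119 and 58.2 CPM, a ratio of -1.02. The sum differed by -0.65 (-0.78 to -0.52), but by -0.34 with no doublets removed, where Hmgcs1 read 0.22 in place of -0.79. Plasmacytoid dendritic-like cells (97 and 131 cells) had 12 of 16 lower, against 52.3%, and 3 of 16 at least 1.5-fold lower, against 6.34%, led by Idi1 at 106 and 59.8 CPM. B cell-like cells (1466 and 1636 cells) had 14 of 17 lower, against 51.8%, but 1 of 17, Mvd, at least 1.5-fold lower, against 3.6%, and a sum that differed by -0.14 (-0.23 to -0.058). Erythroid-like cells (247 and 218 cells) had 12 of 12 lower and 8 of 12 at least 1.5-fold lower, where 73.9% and 31.2% of all genes were so too and the median gene was at -0.33.

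Control genes of growth plate monocyte-like, neutrophil-like and progenitor-like cells were closer to level than their synthesis genes. In monocyte-like cells 5 of 6 control genes were lower, against 54.4% of genes, and none at least 1.5-fold, against 5.16%, with a sum of 209 and 168 CPM, a log2 ratio of -0.31 (-0.39 to -0.24). Srebf2 had 88.2 and 68.7 CPM, Insig1 50.4 and 40.7 CPM and Stard4 22.8 and 16.0 CPM. The sum was lower in neutrophil-like cells too, by -0.15 (-0.21 to -0.084), and in progenitor-like cells, by -0.19 (-0.29 to -0.089), where Insig1 had 17.7 and 10.6 CPM. This is the opposite sign to the 3 neural classes of the ganglion, from different libraries, and the difference was not tested. Blood classes of the ganglion were mixed. In DRG monocyte-like cells 5 of 6 control genes were lower, against 44.5% of genes, and in DRG neutrophil-like cells 3 of 6, against 39.2%. In DRG B cell-like cells 5 of 6 were higher, against 60.1%. Among transport genes, all 4 were higher in growth plate monocyte-like cells, against 45.6% of genes. Npc2 had 753 and 817 CPM there and Abca1 18.2 and 22.3 CPM. In growth plate neutrophil-like cells Abcg1 had 12.1 and 17.1 CPM, a ratio of 0.50 (0.32 to 0.68). In growth plate progenitor-like cells Abcg1 (4.65 and 2.93 CPM) and Abca1 (1.86 and 0.997 CPM, on 24 and 15 UMIs) were at least 1.5-fold lower. These are 2 of 4 transport genes, against 4.14%.

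**Figure D4:**
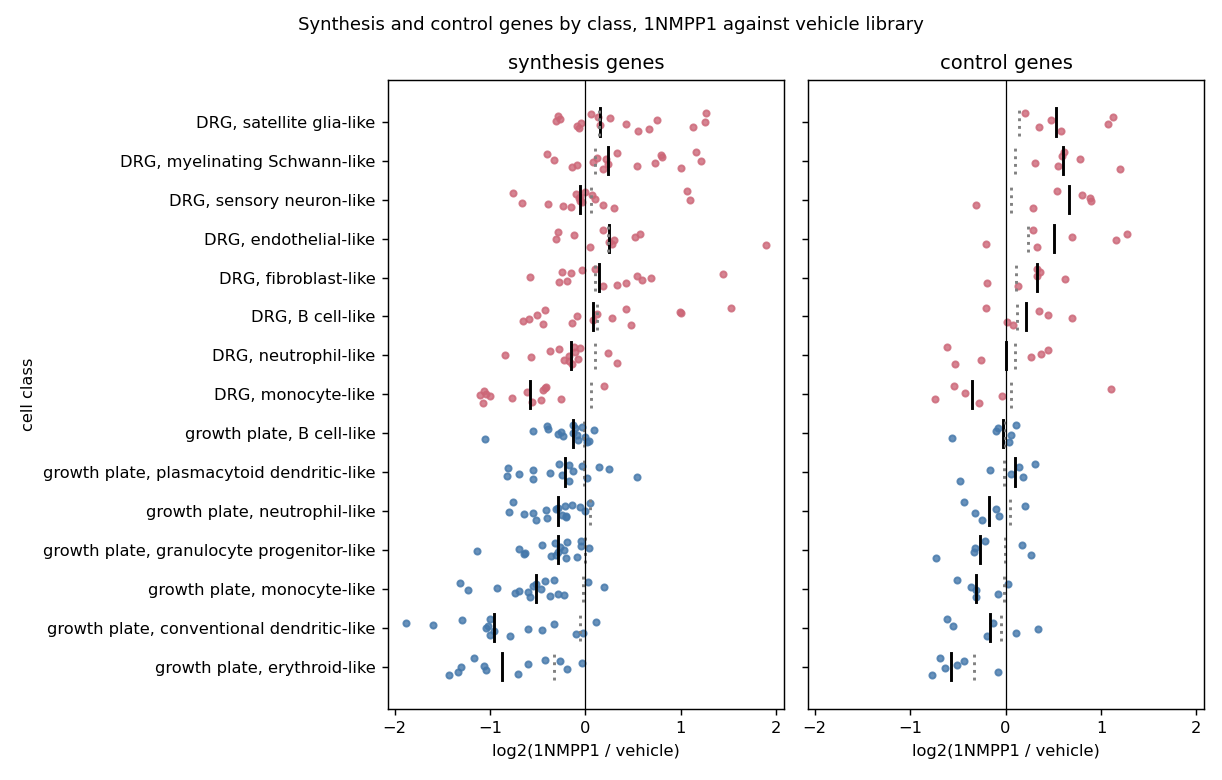
Log2 ratio of the 1NMPP1 to the vehicle library for synthesis genes (left) and control genes (right) by class; each point is 1 gene with at least 20 UMIs (red DRG, blue growth plate), black bars are medians of the list and dotted grey bars medians of all genes. Medians of the control genes lie above 0 in the 3 neural classes, and medians of the synthesis genes lie below 0 in growth plate monocyte-like, neutrophil-like and granulocyte progenitor-like cells.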

How the data were processed

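Cells of 4 groups (vehicle or 1NMPP1, in DRG or growth plate) were measured as 10x libraries, 1 per group. What the authors deposited are unnormalised counts of UMIs for every gene in every barcode. Per the file headers they come from Cell Ranger 7.2.0, and per the submitters' processing notes from the mm10 build. The sources used here give neither kit version nor annotation release.

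Barcodes with under 200 genes or over 20% mitochondrial UMIs were removed, as were 48 to 1093 predicted doublets per library (scrublet, at 0.8% per 1000 barcodes). Libraries held 32790205 to 139703885 UMIs. The 2 libraries of each tissue were clustered jointly (scanpy 1.11.5, 2000 variable genes, 30 components, 20 neighbours, Leiden resolution 1) without the members, related lipid genes, sex-linked, mitochondrial and ribosomal genes, and clusters were named "-like" from fixed markers. Counts were summed per class and library and divided by all UMIs of the class. Intervals of levels are exact Poisson and those of ratios exact conditional, and 0.5 UMI was added to each sum in a ratio. Ratios are described for members with at least 20 UMIs over both libraries and classes with at least 30 cells in each. All 29 members were to be named, with values for those past 1.5-fold and in their highest class. The ratio scripts were tested on simulated data.

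The members and lists were chosen with earlier results of these data known. A few genes and the allele's name are not reported here. Alternatives changed the cell filters, doublet removal, clustering, resolution, scaling, depth (thinning to 1000 UMIs, in 1 draw and as the mean over all draws), weighting, member filter and cells used.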

Additional observations from a re-analysis of the deposited data

Results flagged for a closer look

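Abca1 in macrophage-like cells differed in opposite directions in the tissues. In the ganglion it was higher in the 1NMPP1 library, with a log2 ratio of 0.77 (0.52 to 1.03), and in growth plate lower, with -0.62 (-0.85 to -0.40). There is 1 library per group, and the difference between the tissues was not tested. The growth plate value rests on 37 and 52 cells and was 0.16 with the libraries clustered separately.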

How the results depend on the processing

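With 1 library per group there was no replicate to leave out, and no setting gives a test. No paired analysis was possible because each group holds 1 library. Of 717 alternative values of 59 results on single genes, 696 kept their direction, and 43 of the 59 never lost it. These results were ones already past 1.5-fold and beyond counting error in the main setting. The alternatives reuse the same libraries and mostly the same cells, so a kept direction was likely beforehand and is no independent check. For the headline results, counted apart, 106 alternative values were classed as the same, 70 as moved and 1 as reversed. The order of satellite glia-like, Schwann-like and neuron-like cells held in both libraries in 15 of 16 settings. The thinning draw counted here kept it, with vehicle Schwann-like cells at 2394 and neurons at 2273 CPM, while the separate draw described above did not. Thinning keeps random UMIs, so a value from 1 draw on few UMIs carries the chance of that draw; the mean over all draws, added after seeing the data, does not. Leaving out shared barcodes, asking 100 UMIs of a member and the stricter cell filters moved none of the synthesis and control ratios named below between libraries beyond counting error. In each case below the cause was not tested.

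All values are log2 ratios of 1NMPP1 to vehicle unless a level is named. Thinned to 1000 UMIs in 1 draw, the synthesis sum was 0.26 in satellite glia-like, -0.42 in neuron-like, -0.38 in growth plate monocyte-like and -0.62 in progenitor-like cells, and the control sum 0.81 in satellite glia-like and, reversed, -0.042 in neuron-like cells. Single genes reversed there on 1 to 50 UMIs: Abcg1 (-0.10) and Npc1 (-0.10) in satellite glia-like cells, Stard4 (-0.26) in Schwann-like cells, Ebp (1.31), Dhcr7 (-1.5), Scap (-1.05) and Npc1 (-0.026) in neuron-like cells, Dhcr7 (1.5) in neutrophil-like cells, and Sqle (0.49) and Dhcr7 (0.86) in conventional dendritic-like cells. As the mean over all draws, the synthesis sum was 0.24 in satellite glia-like, -0.31 in neuron-like and -0.54 in monocyte-like cells, and the neuronal control sum 0.25, not reversed. Of the single genes only Dhcr7 (-0.35) and Npc1 (-0.69) in neuron-like cells were then reversed. With each cell weighing alike, the synthesis sum was 0.24 in satellite glia-like, 0.054 in Schwann-like, -0.0084 in neuron-like, -0.54 in monocyte-like and -0.29 in progenitor-like cells, the control sum 0.67 in satellite glia-like and 0.20 in neuron-like cells, and Lss (-0.055) and Ebp (0.10) reversed in neuron-like cells. With each library clustered on its own, it was 0.091 in satellite glia-like, 0.0085 in neuron-like and -0.93 in conventional dendritic-like cells, the neuronal control sum was 0.53, and Abca1 in growth plate macrophage-like cells reversed to 0.16. Without mitochondrial, ribosomal and hemoglobin UMIs it was 0.13 in satellite glia-like and -0.14 in neuron-like cells.

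In female-called cells the synthesis sum was -0.0090 in satellite glia-like, -0.55 in neuron-like, -0.43 in neutrophil-like and -0.87 in conventional dendritic-like cells, and the neuronal control sum 0.51. In male-called cells it was 0.42 in satellite glia-like, 0.41 in Schwann-like, -0.17 in neuron-like, -0.55 in progenitor-like and -0.97 in conventional dendritic-like cells, the neuronal control sum was 0.50, and Npc1 in DRG macrophage-like cells reversed to 0.51. In the largest cluster of a class it was 0.11 in satellite glia-like, 0.46 in neuron-like, -0.56 in monocyte-like, -0.35 in neutrophil-like, -0.54 in progenitor-like and -0.52 in conventional dendritic-like cells, and Fdps in neuron-like (0.35) and Dhcr7 in neutrophil-like cells (0.015) reversed. Without the member with most UMIs it was 0.047 in satellite glia-like, 0.0071 in neuron-like, -0.61 in monocyte-like and -0.36 in progenitor-like cells. With unnamed neuron-scoring clusters added, the neuronal control sum was 0.54. With no doublets removed, conventional dendritic-like cells had -0.34, and Abcg1 in progenitor-like (0.031) and Hmgcs1 in conventional dendritic-like cells (0.22) reversed. At resolution 2 that class had -0.36 and Hmgcs1 0.34.

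The vehicle level of the synthesis sum in satellite glia-like cells, and its log2 ratio to all other DRG cells, were 3710 CPM and 2.10 thinned in 1 draw, 3729 and 2.10 over all draws, 3721 and 1.82 with cells weighing alike, 4909 and 1.74 without mitochondrial, ribosomal and hemoglobin UMIs, 4501 and 2.18 in female-called cells, 4374 and 1.89 in male-called cells, 5009 and 2.06 in the largest cluster, 3423 and 1.78 without Hmgcs1, 4204 and 1.82 with no doublets removed, 4264 and 1.82 at 10% mitochondrial UMIs or less, and 4262 and 1.79 at 500 genes or more. The ratio was 1.82 with libraries clustered alone and 1.52 without erythroid-like, neutrophil-like and B cell-like cells.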

Other observations

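Some classes had fewer than 30 cells in a library and were left out of the comparisons. Non-myelinating Schwann-like cells, the glia of thin axons, numbered 39 in the vehicle and 11 in the 1NMPP1 DRG library, and their 17 synthesis genes summed to 1464 and 1089 CPM. Hmgcs1 had 323 and 196 CPM in them, and Abca1 153 and 265 CPM. These sums lie below those of myelinating Schwann-like cells and above those of every DRG class that is not neural and has at least 30 cells in both libraries.

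Chondrocyte-like cells, the cells that make growth plate cartilage, numbered 68 and 18 in growth plate and held 998 and 724 CPM of synthesis transcripts. Their Abca1 level was 2.54 CPM in the vehicle and 25.9 CPM in the 1NMPP1 library, on 6 and 21 UMIs. The vehicle DRG library held 55 chondrocyte-like cells, at 884 CPM, and the 1NMPP1 DRG library 0. DRG pericyte-like and smooth muscle-like cells numbered 45 and 15, at 350.2 and 296 CPM. Growth plate fibroblast-like cells numbered 20 and 15, at 326 and 711 CPM. An unnamed DRG cluster whose best marker score was that of sensory neurons held 190 and 25 cells with a median of 972 UMIs, at 2207 and 1893 CPM.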
